A study of Mus musculus with 6 samples.

Results

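Inflammasomes are protein assemblies that form inside a cell when a sensor detects microbial material or damage. The sensor recruits the adaptor ASC, encoded by Pycard, and ASC gathers caspase-1, which matures the cytokines IL-1β and IL-18 and cuts gasdermin D. The freed end of gasdermin D forms pores in the plasma membrane, and the lytic death that follows is called pyroptosis. Caspase-11, the product of mouse Casp4, binds bacterial lipopolysaccharide directly and cuts gasdermin D without a sensor protein. In the gut these proteins act both in immune cells and in the epithelium, and the gasdermin C genes are expressed mainly in gut epithelium.

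RNA levels of 10 such genes were examined in colorectal tissue, out of 18268 genes in the table. They were the rows with the symbols Nlrp3, Nlrc4, Aim2, Pycard, Casp1, Casp4, Gsdmd, Gsdmc2, Gsdmc3 and Gsdmc4, and each symbol occurred once. The rule that defines the group uses these names. All 6 mice were C57BL/6, described in the study as adult males, and all received dextran sulfate sodium (DSS) for 7 days, a polymer that injures the colon lining and causes colitis. By gavage for 6 days, 3 of them received berberine (BBR), a plant alkaloid, and 3 received sulfasalazine (SASP), an aminosalicylate drug used against colitis. Each library was taken as 1 mouse, since the labels do not say more, and p-values measure the spread between these libraries. Mice without a drug or without DSS were not analysed here, so each difference below is between the drugs.

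Values are FPKM, read numbers scaled by transcript length and by the total of the library. Approximate depth, inferred from the lowest values, was 16400000 to 18200000 reads per mouse. The library of BBR mouse 3 stood apart. Across tested genes its log2 values correlated with those of the other BBR mice at 0.949 and 0.953. These mice correlated with each other at 0.987 and the SASP mice with each other at 0.982 to 0.989. With SASP mice 1, 2 and 3 the correlations of BBR mouse 3 were 0.920, 0.953 and 0.944, about as high as with its own group. BBR mice 1 and 2 correlated with the SASP mice at 0.916 to 0.953. Each tested member is therefore given with and without BBR mouse 3, and the other gene lists by their counts in both fits. The fit without it compares only BBR mice 1 and 2 with SASP mice 1, 2 and 3. BBR mouse 3 was singled out from these same values, and the p-values of that fit do not allow for this choice. A list of 11 epithelial markers was above 0 in every mouse. Their summed level was 8138 to 8975 FPKM under BBR and 8519.7 to 9741 FPKM under SASP. Only 1297 to 1624 of the 18268 genes were at 0 in any 1 library, so a level above 0 is a weak check of the tissue label.

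The gasdermin C genes needed a look at their sequences before their values. Gsdmc2, Gsdmc3 and Gsdmc4 lie next to each other on chromosome 15. Their longest coding sequences, each of 1443 bases in the GENCODE M21 transcripts, were identical at 97.1% of aligned bases between Gsdmc2 and Gsdmc3, 93.7% between Gsdmc2 and Gsdmc4 and 93.8% between Gsdmc3 and Gsdmc4. Of all windows of 50 bases, taken as the length of a read, in the longest transcript, 48.5% in Gsdmc2, 46.9% in Gsdmc3 and 39.0% in Gsdmc4 also occurred in a transcript of another gene, in each case another gasdermin C gene. For Nlrp3, Pycard, Casp1, Casp4 and Gsdmd this share was 0%, and for Nlrc4 and Aim2 it was 1.13% and 0.789%. The longest coding stretch common to the gasdermin C genes, bases 519 to 689 in each, shows where a read could not be assigned to any single one of them:

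Gsdmc2, Gsdmc3 and Gsdmc4: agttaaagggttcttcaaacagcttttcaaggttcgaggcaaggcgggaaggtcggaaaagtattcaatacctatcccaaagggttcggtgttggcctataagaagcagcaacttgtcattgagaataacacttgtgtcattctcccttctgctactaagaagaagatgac

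The 60-base coding stretch in which the genes differed most, counted from the start codon, shows where reads could be told apart, with the 16 positions at which at least 1 of them differs in capitals:

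Gsdmc2, bases 803 to 862: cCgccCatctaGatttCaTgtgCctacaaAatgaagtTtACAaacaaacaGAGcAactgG
Gsdmc3, bases 803 to 862: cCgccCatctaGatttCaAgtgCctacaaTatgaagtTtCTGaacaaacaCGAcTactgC
Gsdmc4, bases 809 to 868: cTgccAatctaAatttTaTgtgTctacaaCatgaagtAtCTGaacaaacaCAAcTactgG

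RSEM, the program behind the FPKM values, apportions a read matching several genes over those genes, so the level of each gasdermin C gene is less certain than their sum.

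Of the 10 genes, 9 reached 1 FPKM in at least 3 mice and were tested. At an adjusted p under 0.05 in limma, Casp1 and Gsdmd were lower in BBR than in SASP mice, and 0 of the 9 were higher. Over all 12072 genes tested 8.86% passed, 5.04% as lower and 3.82% as higher. An unadjusted p under 0.05 was reached by 4 of the 9, which were Casp1, Gsdmd, Pycard and Gsdmc4, and by 31.8% of all genes. All BBR values lay below all SASP values for 3 of the 9 genes, Casp1, Gsdmd and Pycard, and above them for Gsdmc4. Over all tested genes the groups did not overlap for 37.9%, with BBR lower for 16.6% and higher for 21.3%. The median log2 fold change of the 9 was -0.17, against 0.10 over all genes tested.

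**Figure D1:**
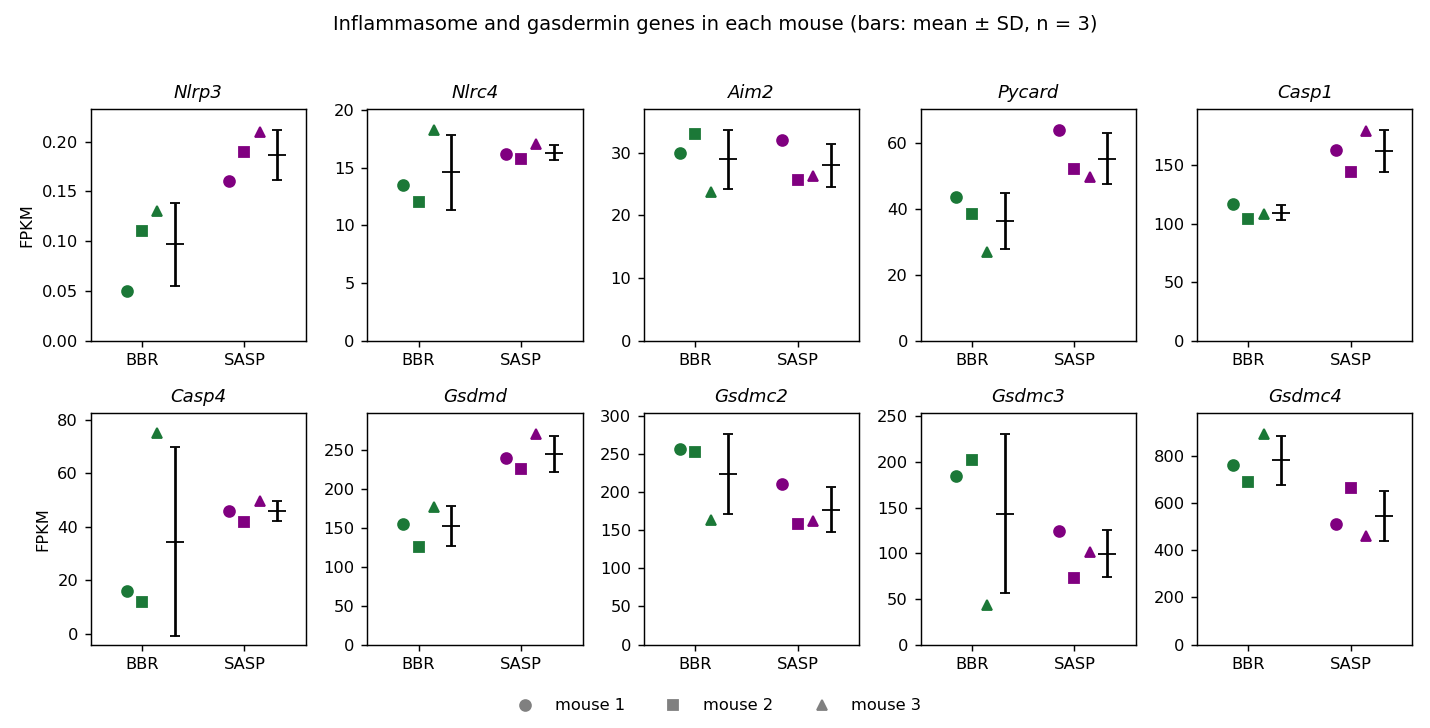
FPKM of the 10 genes in each mouse, with 1 panel per gene, linear axes that include 0 and the mean ± SD of each group (n = 3) as a black bar. Casp1, Gsdmd, Pycard and Nlrp3 lie lower in all BBR mice, though Nlrp3 rests on few reads and was not tested. BBR mouse 3 (triangles) sits far from the other BBR mice for Casp4 and Gsdmc3.

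None of the sensor genes passed the threshold with all 6 mice. Nlrp3 encodes a sensor of membrane damage and ion efflux. It was listed at 0.05, 0.11 and 0.13 FPKM in BBR mice 1, 2 and 3 and at 0.16, 0.19 and 0.21 FPKM under SASP 1, 2 and 3. The groups did not overlap, but at the approximate depth these values stand for about 3 to 14 reads per mouse, so Nlrp3 lay below the filter and was not tested. Its level was the lowest of the 10 genes.

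Nlrc4 encodes the partner that NAIP proteins engage after binding bacterial flagellin or secretion system proteins. It was at 13.5, 12.01 and 18.3 FPKM under BBR and 16.2, 15.8 and 17.0 FPKM under SASP. The BBR mice lay on both sides of the SASP mice, and the log2 fold change was -0.17 (95% interval -0.55 to 0.20, limma adjusted p = 0.480). Without BBR mouse 3 it was -0.33 and passed the threshold (adjusted p = 0.0362).

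Aim2 encodes a sensor of cytosolic DNA. Its values were 30.0, 33.0 and 23.8 FPKM under BBR and 31.9, 25.6 and 26.3 FPKM under SASP. The groups overlapped, the log2 fold change was 0.04 (limma adjusted p = 0.865), and its 95% interval reached from -0.32 to 0.40. Aim2 was not past the threshold without BBR mouse 3 either (0.17, adjusted p = 0.285).

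Pycard, the gene of the adaptor ASC, was at 43.6, 38.3 and 26.8 FPKM under BBR and 63.9, 52.0 and 49.5 FPKM under SASP. Each BBR mouse lay below each SASP mouse, with BBR mouse 3 the lowest. The difference, a log2 fold change of -0.61 (SE 0.19), did not pass the threshold (limma adjusted p = 0.0860). Without BBR mouse 3 it was -0.42 (adjusted p = 0.0521).

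Casp1 encodes the caspase that ASC activates. It was at 117, 104 and 108 FPKM under BBR and 163, 144 and 179.7 FPKM under SASP. The BBR mice lay close together, BBR mouse 3 among them, and below all SASP mice. The means were 109.5 ± 6.43 and 162 ± 17.9 FPKM (SD, n = 3 each), which is -0.56 on the log2 scale (SE 0.12, limma adjusted p = 0.0365). It was -0.55 without BBR mouse 3 (adjusted p = 0.0175), but its adjusted p rose above 0.05 without any of the other 5 mice, with 0.0506 to 0.146.

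Gsdmd, the gene of the pore-forming gasdermin D, was at 155, 126 and 177 FPKM under BBR and 240.0, 225 and 271 FPKM under SASP. Again all BBR mice lay below all SASP mice. The means were 153 ± 26.0 and 245 ± 23.4 FPKM (SD, n = 3 each), which is -0.69 on the log2 scale (SE 0.15, limma adjusted p = 0.0412), and -0.80 without BBR mouse 3 (adjusted p = 0.00809). As for Casp1, the call was lost without any other mouse, with adjusted p-values of 0.0804 to 0.151. It was also lost with quantile normalization (adjusted p = 0.0507), and both genes lost their calls with no filter on low values (adjusted p = 0.0521 for Casp1 and 0.0647 for Gsdmd).

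Casp4, the gene of the lipopolysaccharide-binding caspase, varied most among the BBR mice. It was at 16.0, 11.9 and 75.0 FPKM under BBR and 46.0, 41.8 and 49.5 FPKM under SASP. BBR mice 1 and 2 lay below and BBR mouse 3 above every SASP mouse, a range of 6.30-fold within BBR against 1.18-fold within SASP. With all mice the log2 fold change of -0.87 had a 95% interval of -2.31 to 0.57 and did not pass the threshold (limma adjusted p = 0.352). Without BBR mouse 3 it was -1.65 (SE 0.14, adjusted p = 0.00167). Casp1, its neighbour on chromosome 9, ranged 1.12-fold within BBR.

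The 170 bases before the start of Casp1 and Casp4 are shown because these neighbouring genes are the members with the narrowest and the widest range among BBR mice. The sequences come from the RefSeq annotation of GRCm38.p6, and capitals mark matches to a loose form of the NF-κB motif (GGG, then any 5 bases, then CC) on either strand.

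Casp1, chr9:5298347-5298516, + strand: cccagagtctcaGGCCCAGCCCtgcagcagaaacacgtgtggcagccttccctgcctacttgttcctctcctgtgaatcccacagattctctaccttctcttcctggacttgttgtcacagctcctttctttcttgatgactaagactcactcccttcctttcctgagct
Casp4, chr9:5308679-5308848, + strand: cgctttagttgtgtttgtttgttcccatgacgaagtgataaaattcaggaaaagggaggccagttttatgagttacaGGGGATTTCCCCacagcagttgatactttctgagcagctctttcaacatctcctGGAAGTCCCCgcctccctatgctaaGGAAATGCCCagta

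The Casp4 window held 3 separate stretches with matches, the first of them made of 4 overlapping matches, which include the same 10 bases read on both strands, and the Casp1 window held 1 match. These letters are common, since 50.8% of the 32851 RefSeq promoters of 300 bases held at least 1 match. How many held several was not counted, and a link between the matches and the range among mice was not tested. Of the 10 genes, 7 had a promoter entry, while Gsdmd, Gsdmc2 and Gsdmc4 had none and were not searched. A match was held by 4 of the 7, namely Nlrp3, Casp1, Casp4 and Gsdmc3. Neither the GAS letters TTCNNNGAA nor the ISRE core (GAAA, then any 2 bases, then GAAA), on either strand, occurred in an entry of the 7 genes, while 8.30% and 3.44% of all promoters held them.

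The gasdermin C genes were among the most abundant in the tissue. Gsdmc4, with a mean of 664 FPKM over the 6 mice, lay above 99.4% of the tested genes, and Gsdmc2 and Gsdmc3 lay above 97% and 94.9%. It was at 762, 689 and 895 FPKM under BBR and 512, 665 and 460 FPKM under SASP. All BBR mice lay above all SASP mice, and the log2 fold change was 0.53 (SE 0.18, limma adjusted p = 0.105), short of the threshold, as it was without BBR mouse 3 (0.43, adjusted p = 0.0967).

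Gsdmc2 was at 256, 253 and 164 FPKM under BBR and 211, 158 and 162 FPKM under SASP. BBR mice 1 and 2 lay above and BBR mouse 3 within the SASP range. The log2 fold change was 0.32 (95% interval -0.17 to 0.82, limma adjusted p = 0.320) and 0.53 without BBR mouse 3 (adjusted p = 0.0320).

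Gsdmc3 was at 185, 202 and 43.2 FPKM under BBR and 124, 72.9 and 101 FPKM under SASP. BBR mouse 3 had the lowest value of all 6 mice and BBR mice 1 and 2 the highest, which is the reverse of their order for Casp4. The log2 fold change was 0.27 with a 95% interval of -1.07 to 1.62 (limma adjusted p = 0.762), and 0.99 without BBR mouse 3 (adjusted p = 0.0186).

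Summed over Gsdmc2, Gsdmc3 and Gsdmc4, the level was 1203, 1145 and 1102 FPKM under BBR and 847, 896 and 723 FPKM under SASP. For the sum BBR mouse 3 lay near the other BBR mice, and the groups did not overlap. The sum was 1149.8 ± 50.8 FPKM under BBR and 822 ± 89.6 FPKM under SASP (SD, n = 3 each), and as a score over chosen genes it was not tested. What set BBR mouse 3 apart was the division of the sum. Gsdmc3 took 3.92% of it there and 15.4% and 17.7% in BBR mice 1 and 2, while Gsdmc4 took 81.2% against 63.3% and 60.2%. Among SASP mice, mouse 2 was nearest to this division, with 8.13% for Gsdmc3 and 74.2% for Gsdmc4. As 46.9% of the windows of Gsdmc3 are shared, how much of this division comes from the assignment of reads was not tested.

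**Figure D2:**
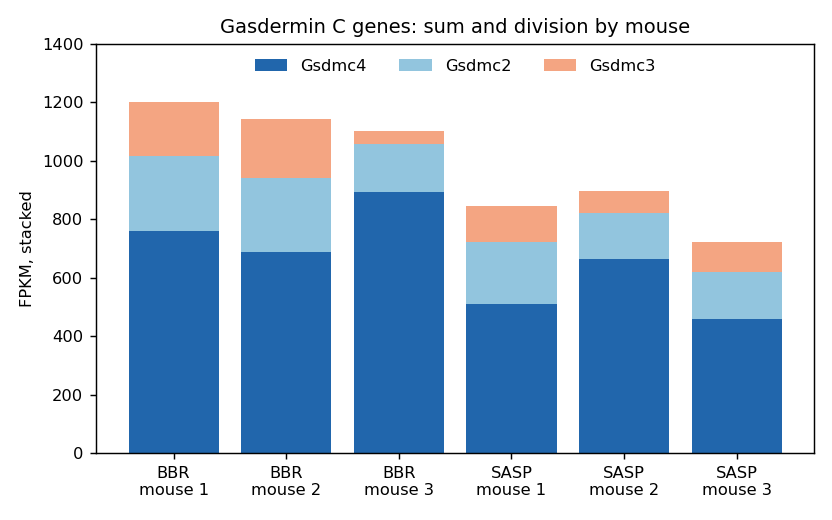
Stacked FPKM of Gsdmc4, Gsdmc2 and Gsdmc3 in each mouse, with the axis starting at 0. The bars total 1102 to 1203 FPKM under BBR and 723 to 896 FPKM under SASP, and the Gsdmc3 part of BBR mouse 3 is the smallest at 43.2 FPKM.

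Leaving out BBR mouse 3 raised the count of genes past the threshold from 2 to 6 of 9. Casp1, Casp4, Gsdmd and Nlrc4 were then lower under BBR, and Gsdmc2 and Gsdmc3 were higher. The calls of Gsdmc2 and Gsdmc3 are not independent, since reads matching both genes are apportioned between them. In the same fit 33.8% of all genes passed, so a larger count among these genes came with a larger count everywhere. Pycard and Gsdmc4 were short of the threshold there. With array quality weights 8 of the 9 passed, against 59.0% of all genes, but this fit rests largely on 1 mouse per group, with weights of 5.32 for BBR mouse 1 and 4.85 for SASP mouse 3 and 0.128 to 0.746 for the other 4.

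**Figure D3:**
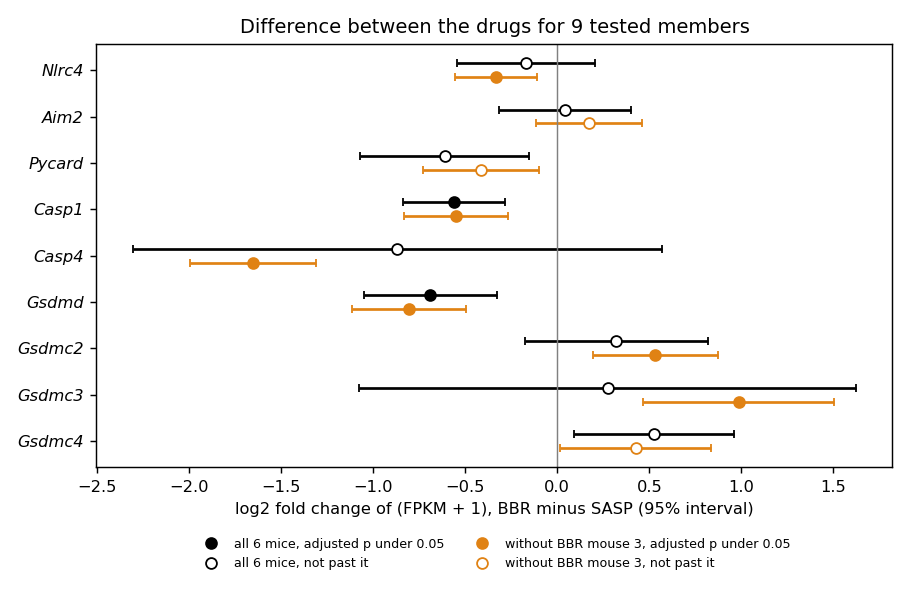
Log2 fold change of FPKM + 1, BBR minus SASP, for the 9 tested genes with 95% intervals, with all 6 mice (black) and without BBR mouse 3 (orange), where filled points have an adjusted p under 0.05. The intervals of Casp4 and Gsdmc3 shrink most, from -2.31 to 0.57 and -1.07 to 1.62 with all mice to -1.995 to -1.31 and 0.47 to 1.51 without it.

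Other genes of the pathway were taken from a list of 57, of which 43 could be tested. In limma 14 of them passed the threshold as lower and 2 as higher under BBR, against 5.04% and 3.82% of all genes. The median log2 fold change of the 43 was -0.40. Without BBR mouse 3, 23 of 42 passed, 19 as lower and 4 as higher, against 11.5% and 22.3% of all genes, and the 16 genes called with all mice were among them. In the fits that each left out a mouse, 10 of the 16 kept their calls wherever they were tested, and 3 of the 16, Gm12250 and Gbp7 among them, passed with a smooth muscle score as covariate.

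Of the 10 other sensor genes tested, 1 passed. This was Nlrc5, best known as a transactivator of MHC class I genes, which was at 0.29, 0.36 and 0.54 FPKM under BBR and 15.3, 6.24 and 12.6 FPKM under SASP (log2 fold change -3.07, limma adjusted p = 0.00482). The genes of the NAIP proteins that pair with NLRC4, Naip1, Naip2, Naip5 and Naip6, had log2 fold changes of -0.13, -0.17, -0.25 and -0.10, and their adjusted p-values were 0.504, 0.264, 0.205 and 0.743. Nlrp6, an epithelial sensor, was at 115, 85.8 and 44.7 FPKM under BBR and 143, 134 and 152 FPKM under SASP (adjusted p = 0.106), again with BBR mouse 3 farthest out, and without that mouse it passed as lower (log2 fold change -0.52, limma adjusted p = 0.0321).

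Among the other gasdermin genes 2 of 6 were tested and 0 passed, with 0 at an unadjusted p under 0.05. Of the 2, Gsdme had the smaller p (log2 fold change 0.22, limma adjusted p = 0.354). Gsdmc itself was listed at no more than 0.12 FPKM in any mouse.

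Brakes and regulators of cell death had negative log2 fold changes in 7 of 7 cases, and 2 passed. Both belong to necroptosis, a lytic death that needs no gasdermin. Mlkl, its pore-forming effector, was at 9.77, 8.74 and 11.9 FPKM under BBR and 48.8, 31.9 and 45.2 FPKM under SASP (log2 fold change -1.94, limma adjusted p = 0.00478). Ripk3, the kinase that activates it, was at 8.11, 6.58 and 28.0 FPKM under BBR and 72.2, 47.5 and 58.6 FPKM under SASP (-2.24, adjusted p = 0.0390), with BBR mouse 3 highest of its group, as for Casp4. The call of Ripk3 was lost without any mouse other than BBR mouse 3.

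Among the substrates of caspase-1 and the genes around them, the genes that passed encode antagonists, 1 in each direction. Il18bp, whose product captures IL-18, was at 5.51, 3.24 and 10.9 FPKM under BBR and 126, 34.3 and 92.8 FPKM under SASP (log2 fold change -3.44, limma adjusted p = 0.0186). Il1rn, the gene of the IL-1 receptor antagonist, was higher under BBR, at 40.8, 45.2 and 56.3 against 22.3, 27.0 and 21.0 FPKM (0.98, adjusted p = 0.0186). Il18bp and Il1rn both lost their calls without BBR mouse 1, SASP mouse 1 or SASP mouse 3. Il18 was at 226, 174 and 286 FPKM under BBR and 132, 230.5 and 132 FPKM under SASP (adjusted p = 0.249), and Il1b at 0.33, 0.89 and 3.23 against 0.70, 1.36 and 1.36 FPKM (adjusted p = 0.934). Of the genes for activators and membrane rupture, Txnip, whose product binds thioredoxin and NLRP3, passed as higher, at 692 ± 129.8 against 365 ± 67.3 FPKM (SD, n = 3 each, adjusted p = 0.0402), a call that held without BBR mouse 3 and was lost without any other mouse.

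Of the 43 genes, those with the largest differences encode GTPases of the GBP and IRG families, which help expose bacterial lipopolysaccharide and DNA to caspase-11 and AIM2. All 5 passed as lower, with log2 fold changes of -5.39 for Gm12250, the gene of IRGB10, -5.08 for Gbp2, -3.89 for Gbp3, -3.75 for Gbp5 and -3.49 for Gbp7 (limma adjusted p = 0.000281, 0.00285, 0.00272, 0.00171 and 0.000695). Reads shared among the Gbp genes, or among the Naip genes, were not examined, and their single levels are uncertain to that extent. Gm12250 and Nlrc5 fell below the filter whenever a SASP mouse was left out. Of the transcription factor genes on the list, Irf8 and Irf1 passed as lower, with log2 fold changes of -2.21 and -1.68 (limma adjusted p = 0.00171 and 0.00478), and Irf2 was not past the threshold with all mice (0.23, adjusted p = 0.640) and passed as higher without BBR mouse 3 (0.62, adjusted p = 0.0174).

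**Figure D4:**
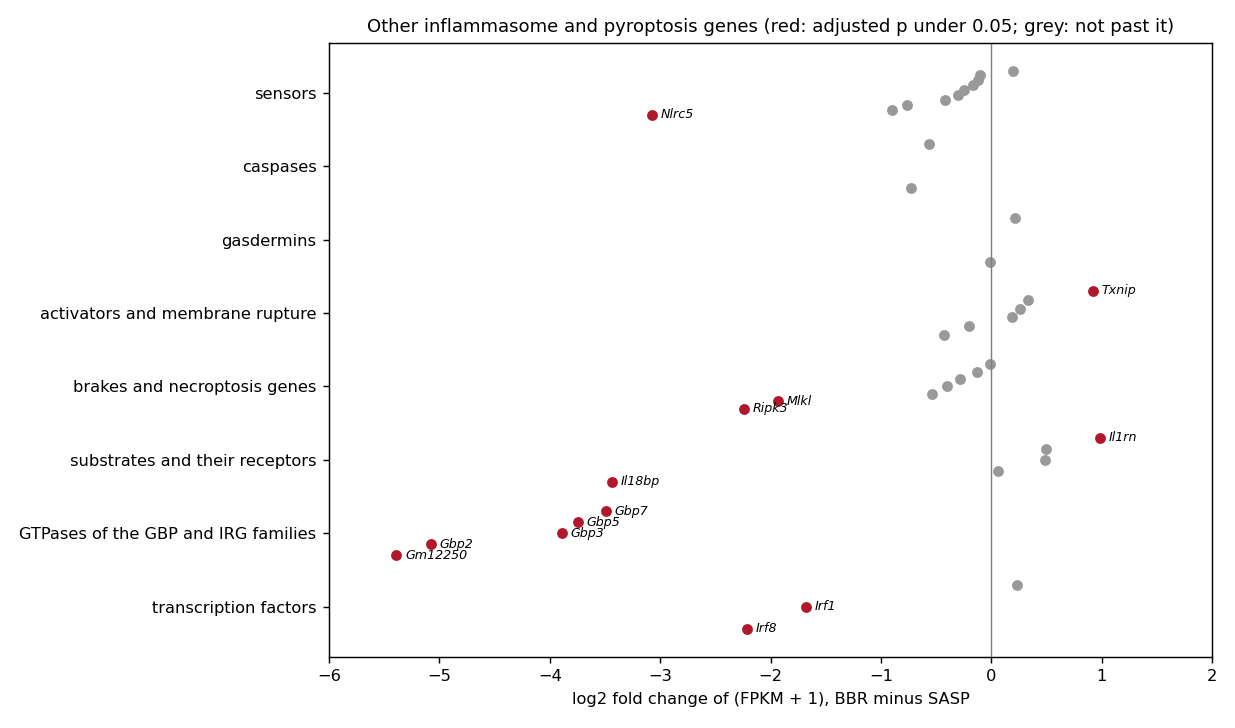
Log2 fold change of FPKM + 1, BBR minus SASP, for tested genes of the pathway list by subgroup, where each point is a gene and red points with names have an adjusted p under 0.05. Txnip and Il1rn are the red points right of 0, and the 5 GTPase genes span -5.39 to -3.49.

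To place the patterns among all genes, the 3 nearest of 12071 other tested genes were found for 4 of the members by the root mean square difference of centred log2 values over the 6 mice. Nearest to Casp4 were Hk2, Tnip3 and Pde9a, at differences of 0.15, 0.18 and 0.20. Hk2, a hexokinase gene, was at 44.9, 43.7 and 254 FPKM under BBR and 147, 149.5 and 185 FPKM under SASP, with the same single high BBR mouse. Nearest to Gsdmd were Gab2, Pak1 and Myd88, at 0.035, 0.069 and 0.085. Nearest to Aim2 were Tspan14, Plpp6 and Stap2, at 0.041, 0.051 and 0.052, and nearest to Gsdmc2 were Prkcd, Traf1 and A630026N12Rik, at 0.052, 0.060 and 0.062.

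In whole tissue, fewer cells of a type and less RNA per cell cannot be told apart. Of the 11 epithelial markers, Krt18 and Cdx2 passed as higher and Vil1 as lower, with a median log2 fold change of 0.02. The 5 leukocyte markers had negative log2 fold changes in 5 of 5 cases, with a sum of 15.4 to 25.5 FPKM under BBR and 24.4 to 56.4 FPKM under SASP, and 0 passed in limma, with 3 at an unadjusted p under 0.05. The sum of 9 macrophage markers was 114 to 187 FPKM under BBR and 176 to 195 FPKM under SASP, and 0 of 9 passed in limma, with 2 at an unadjusted p under 0.05. Of 6 granulocyte markers S100a8 passed as lower and was listed at 0 in BBR mice 1 and 2, and Retnlg was at 0 in SASP mouse 1. Without BBR mouse 3, 4 of the 5 tested granulocyte markers passed as lower, against 11.5% of all genes. These were S100a8, S100a9, Ly6g and Csf3r, with log2 fold changes of -4.44, -3.04, -0.96 and -0.76. The remaining tested marker, Cxcr2, was at -0.018 in that fit (limma adjusted p = 0.946). A link between these markers and the members was not tested. The sum of this list, 192 to 567 against 357 to 536 FPKM, was nearly all Ly6g. Over all mice Ly6g was at 190 to 552 FPKM, while Csf3r was at 0.58 to 1.90 FPKM.

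The sum of the 12 smooth muscle markers was higher in each BBR mouse than in each SASP mouse and highest in BBR mouse 3. It was 3211, 3404 and 7500 FPKM under BBR and 863, 2614.5 and 1959 FPKM under SASP, and 12 of 12 had positive log2 fold changes, though 0 passed in limma, with 10 at an unadjusted p under 0.05. The goblet cell sum was 23746 FPKM in BBR mouse 3 and 10135 to 15064 FPKM in the other 5 mice, and 0 of 7 passed in limma, also 0 at an unadjusted p under 0.05. The surface colonocyte sum was 5798 to 9593 FPKM under BBR and 4446 to 6216 FPKM under SASP, where Slc20a1 passed as higher among 8. Of 10 listed genes of type 2 immunity and tuft cells, 9 had values, as Il13 was missing, and 5 were tested. In limma 0 passed, with 2 at an unadjusted p under 0.05, Il33 as higher and Retnlb as lower. The cytokine genes Il4, Il5 and Il25 were each at 0 in some mice. The 6 T cell markers summed to 3.51 to 5.46 FPKM under BBR and 2.55 to 4.90 FPKM under SASP, of which 1 was tested and 0 passed in limma, also 0 at an unadjusted p under 0.05. With the smooth muscle score as covariate 0 of the 9 members passed in limma, with 4 at an unadjusted p under 0.05, against 16.1% of all genes. The log2 fold changes were then -0.49 for Casp1, -0.81 for Gsdmd, -0.37 for Nlrc4, -0.15 for Pycard and -1.82 for Casp4. They were 0.38 for Aim2, 0.85 for Gsdmc2, 1.56 for Gsdmc3 and 0.29 for Gsdmc4. As the smooth muscle level itself differed between the groups, this fit cannot fully separate drug from smooth muscle, and its values are given without intervals. Without BBR mouse 3, 33.8% of all genes passed. In that fit 5 of 11 epithelial markers passed (3 lower, 2 higher) and 3 of 8 surface colonocyte markers (2 lower, 1 higher). Of 9 macrophage markers 1 passed as higher, and of 4 tested type 2 or tuft markers 1 passed as lower. In that limma fit 0 leukocyte, smooth muscle, goblet and T cell markers passed, with 2, 5, 0 and 0 at an unadjusted p under 0.05. The part of these cell types in the members' differences was not tested further.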

How the data were processed

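RNA was extracted from colorectal tissue of 6 mice. The authors deposited FPKM values per gene and library, calculated with RSEM 1.2.12 after alignment with Bowtie2 2.2.5. The submitters' processing notes also name mm9 without saying its role, and the annotation is not given in the sources used here. The methods describe rRNA depletion and short single-end reads without naming SASP mice, and the labels name an Illumina kit, so the library type is uncertain. Groups came from the treatment label, and replicate numbers follow accession order.

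FPKM are not counts, so log2(FPKM + 1) values of genes at 1 FPKM or more in at least 3 of 6 mice were compared with limma 3.58.1 (R 4.3.3, mean-variance trend, two-sided, Benjamini-Hochberg adjustment over 12072 genes, threshold 0.05). Fold changes of low genes are understated on this scale. Permuting 3 against 3 mice allows no p below 0.10 and was not used. The fit was tested on simulated data with independent noise for each gene and mouse. These held no library that stood apart, so the simulation does not cover that feature of the data. Libraries shared at most 0.389% of their values. Depth was approximated from genes above 0 in 1 mouse only with transcripts under 1500 bases, each value taken as 1 read. Windows and coding sequences came from GENCODE M21. Named were all 10 members, the pathway genes past the threshold other than some not reported here, and in a subgroup with none the gene with the smallest p. The Naip genes, Nlrp6, Il18, Il1b, Irf2, Gsdmc and single markers were named after their values were seen. The members and lists were chosen with earlier results of these data known. Tried were other pseudocounts, filters and scalings, no variance trend, array weights, a smooth muscle covariate and leaving out each mouse. Protein sequences were not analysed here.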

Additional observations from a re-analysis of the deposited data

How the results depend on the processing

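No paired analysis was possible because the labels give the groups no shared replicate numbers. Against 2 called members with all mice, the count was 0 with no filter, 1 with quantile normalization, 8 with array quality weights (59.0% of all genes then passed) and 0 with the smooth muscle covariate, and 0 to 6 when a mouse was left out, 6 without BBR mouse 3 and 0 in limma without any other (2 to 4 at an unadjusted p under 0.05, against 20% to 26.5% of all genes). At an unadjusted p under 0.05 there were 5 with no filter and 4 with the covariate, against 25.6% and 16.1% of all genes. The 16 called pathway genes became 34 with array weights and 3 with the covariate (8 to 23 without a mouse). The 1069 genes called over the whole table (608 lower, 461 higher) became 608 with no filter, 1713 with median-ratio scaling (1082 lower, 631 higher), 1737 with quantile normalization, 7126 with array weights (2490 lower, 4636 higher) and 19 with the covariate (17 lower, 2 higher), and 51 to 4018 without a mouse, the lowest without SASP mouse 3. Median-ratio scaling moved the median log2 fold change of all genes from 0.10 to 0.02. The covariate leaves fewer degrees of freedom.

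With array weights the log2 fold changes that newly passed were -0.30 for Nlrc4, -0.26 for Pycard, -1.52 for Casp4, 0.61 for Gsdmc2, 0.86 for Gsdmc3 and 0.64 for Gsdmc4. Pycard also passed with median-ratio scaling (-0.70). Casp1 was short of it with no filter (-0.56) and with the covariate (-0.49), and Gsdmd with no filter (-0.69), quantile normalization (-0.58) and the covariate (-0.81). Aim2 changed sign with median-ratio scaling (-0.046), without BBR mouse 2 (-0.056) and without SASP mouse 2 (-0.01), and Gsdmc3 without BBR mouse 1 (-0.05) or BBR mouse 2 (-0.11). The cause was not tested. Without a mouse the values ranged from -0.33 to -0.051 for Nlrc4, -0.056 to 0.17 for Aim2, -0.76 to -0.42 for Pycard, -0.64 to -0.48 for Casp1, -1.65 to -0.38 for Casp4, -0.80 to -0.56 for Gsdmd, 0.21 to 0.53 for Gsdmc2, -0.11 to 0.99 for Gsdmc3 and 0.41 to 0.68 for Gsdmc4. Nlrp3 rests on too few reads for a statement.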
